A study of Homo sapiens with 6 samples.

Results

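The genes of the mitochondrial respiratory chain were examined in KYSE70 cells, a long-established line of squamous cell carcinoma of the human esophagus (ESCC), and in NRF2null-KYSE70, which was derived from it. The genes were chosen by symbol: the NDUF genes of complex I, the SDH genes of complex II, the UQCR genes of complex III, the COX subunit genes of complex IV, the ATP5 genes of ATP synthase (complex V), and the protein-coding genes of the mitochondrial genome. This rule found 97 of the 58884 genes in the table, 13 of them on mitochondrial DNA and 84 in the nucleus. Assigned by symbol, the nuclear members were 37 for complex I, 4 for complex II, 8 for complex III, 16 for complex IV and 19 for complex V. NDUFA4, a subunit now placed in complex IV, is thus counted under complex I throughout. Both lines were grown without treatment, and each gave 3 RNA-seq libraries. KYSE70 carries a mutant NFE2L2, the gene of the transcription factor NRF2. NRF2null-KYSE70 was grown from 1 clone after CRISPR-Cas9 cutting of NFE2L2, and the study's text describes a residual smaller NRF2 band in it. With a single clone set against its parental line, the effect of the edit and the difference between this clone and the parental population cannot be told apart. The labels call the libraries replicates without saying that they came from separate cultures, so p-values measure the spread between these libraries, which may be technical.

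The respiratory chain sits in the inner mitochondrial membrane. Complexes I and II pass electrons from NADH and succinate to ubiquinone, complex III passes them on to cytochrome c, and complex IV gives them to oxygen. Complexes I, III and IV pump protons, and ATP synthase uses the returning protons to make ATP. Complexes I, III, IV and V mix subunits made from mitochondrial DNA with subunits made in the cytosol from nuclear genes, while complex II is built from nuclear genes alone. The nuclear genes are scattered over the chromosomes and each has its own promoter, whereas the mitochondrial genes are cut out of long shared transcripts of a small circular genome.

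The libraries held between 52072801 and 63975313 reads assigned to genes. NFE2L2 itself was read first as a check of the labels. Its normalized count was 9839, 9906 and 10039.8 in KYSE70 and 5803, 6041 and 6434 in NRF2null-KYSE70, 61.4% of the KYSE70 mean (log2 fold change of -0.71 ± 0.05 (SE), adjusted p = 9.37e-08 by limma), so its mRNA was lower in all 3 libraries but not absent. All 8 squamous epithelial markers were detected in both lines, with TP63 and KRT5 lower and KRT6A and KRT17 higher in NRF2null-KYSE70. Of 10 markers of other cell types, 2 (ALB and NEUROD1) had no read, and the list's summed normalized count ran from 1528 to 1764 in KYSE70 and from 799 to 1106 in NRF2null-KYSE70. Of the 4 markers of that list that were tested, 2 were lower and 2 higher. COL3A1, a fibroblast collagen, fell from 257 ± 38.7 to 8.46 ± 2.56 and PTPRC, a leukocyte gene, rose from 0.35 ± 0.61 to 43.6 ± 3.96 (SD, n = 3), and their part in the results below was not tested. Among the nuclear respiratory chain genes, NRF2null-KYSE70 library 1 stood apart: it was the lowest of its group's 3 libraries for 72 of the 76 tested nuclear members, with a median log2 deviation of -0.14 from the group mean. Over all tested genes its median log2 deviation was 0.0093. KYSE70 library 3 was the highest of its group for 62 of the 76. Counts of called members and summed levels are therefore also given without NRF2null-KYSE70 library 1. Counts of called members are given without KYSE70 library 3 as well.

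Among respiratory chain mRNAs of the nucleus more were lower than higher in NRF2null-KYSE70, and among those of the mitochondrial genome more were higher than lower. Of the 97 members, 89 had a mean normalized count of at least 10 and were tested (limma on log2(normalized count + 1), Benjamini-Hochberg adjustment over all 15994 tested genes). At an adjusted p under 0.05, 37 members were lower, against 28.3% of all tested genes, and 17 were higher, against 29.3%. The remaining 35 did not pass. In shares, 41.6% of the tested members were lower and 19.1% higher, together 54 of 89, and 57.6% of all tested genes passed in either direction. In these bulk libraries fewer cells of a type and less RNA per cell cannot be told apart. The groups did not overlap, with all 3 NRF2null-KYSE70 values on one side, for 41 members that were lower and 17 that were higher; over all tested genes the shares were 31.3% and 32.1%. Split by genome, 36 of the 76 tested nuclear members were lower and 8 higher, and for the 13 mitochondrial members these counts were 1 and 9. Fold changes are given as NRF2null-KYSE70 over KYSE70, and their median on the log2 scale was -0.20 over the tested nuclear members, 0.33 over the mitochondrial members and -0.01 over all tested genes. Scaling by library totals in place of the deposited size factors moved the split of called members from 68.5% lower to 78.8% lower. Without NRF2null-KYSE70 library 1, 34 members were lower and 19 higher, and the median over the tested members went from -0.15 to -0.09. For the nuclear members alone the counts without that library were 33 lower and 10 higher, with a median of -0.12. Without KYSE70 library 3, 29 members were lower and 16 higher, with a median of -0.12. The nuclear members alone were then lower for 28 and higher for 8, with a median of -0.17.

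In what follows a value with an error and an adjusted p is a log2 fold change with its SE from limma. The changes were modest in size. None of the 89 tested members both passed the adjusted p of 0.05 and changed by 1 or more on the log2 scale (2-fold), which 14.7% of all tested genes did. With an unadjusted p under 0.05 in place of the adjusted one, 1 member (NDUFV2) passed, and edgeR and DESeq2 on the recovered reads gave the same count of 0 with adjusted and 1 with unadjusted p-values. Other settings took NDUFV2, which had few reads, past both thresholds. These were total scaling (-1.21, adjusted p = 0.0402), total scaling of nuclear genes (-1.205, 0.0409) and limma without trend (-1.14, 0.0315). Subtracting the median of neighbouring genes (-1.249, adjusted p = 0.0431) and leaving out NRF2null-KYSE70 library 2 (-1.46, 0.027) did so too. The called members ran from -0.91 for ATP5MC2 to 0.55 for MT-ATP6 on the log2 scale, that is, from 53.2% to 147% of the KYSE70 mean.

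**Figure D1:**
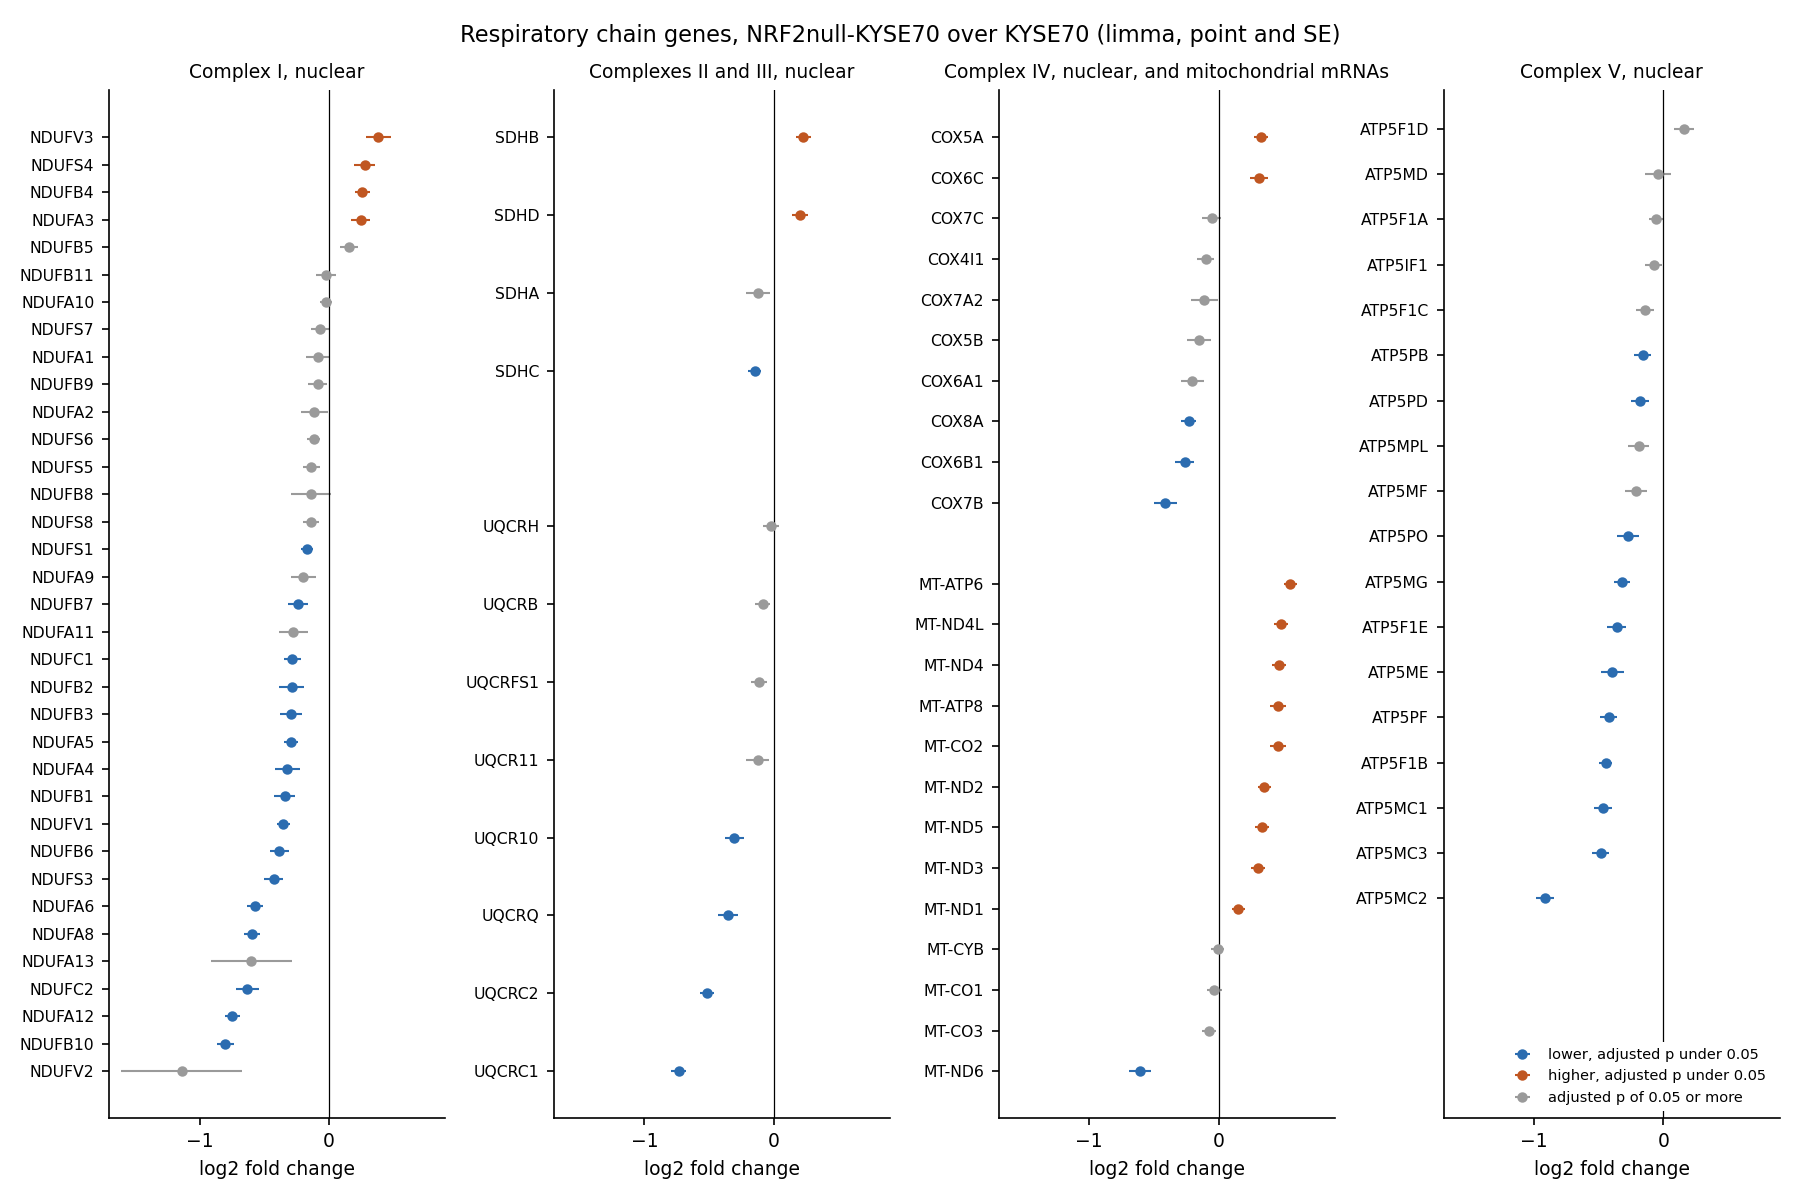
Each point is the log2 fold change, NRF2null-KYSE70 over KYSE70, of 1 of 88 of the 89 tested respiratory chain genes, with its SE from limma (n = 3 libraries a line), in panels by complex. Blue points passed an adjusted p under 0.05 and were lower, orange points passed and were higher, and grey points did not pass; most points of the nuclear panels lie left of 0, with many of them grey, and 9 of the 13 mitochondrial genes lie to the right of it.

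The mitochondrial genome encodes 7 subunits of complex I (MT-ND1 to MT-ND6 and MT-ND4L), 1 of complex III (MT-CYB), 3 of complex IV (MT-CO1 to MT-CO3) and 2 of ATP synthase (MT-ATP6 and MT-ATP8). Most are read from the heavy strand as part of 1 long transcript, and MT-ND6 is the only one of the 13 that lies on the light strand. Some are so tightly packed that neighbouring reading frames share bases. The stretches below show where MT-ATP8 runs into MT-ATP6 and MT-ND4L into MT-ND4, because these are the pairs whose values stand side by side in the results. They are printed 5′ to 3′ on the + strand of hg38 (chrM:8507-8592 and chrM:10740-10786), with the 46 and the 7 bases that belong to both genes in capitals.
MT-ATP8 and MT-ATP6: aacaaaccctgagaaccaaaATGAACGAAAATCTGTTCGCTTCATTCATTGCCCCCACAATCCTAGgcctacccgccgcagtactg
MT-ND4L and MT-ND4: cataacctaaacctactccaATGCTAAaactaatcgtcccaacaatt

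Both pairs were higher in NRF2null-KYSE70. MT-ATP6, a proton channel subunit of ATP synthase, had normalized counts of 50435, 45531 and 45443 in KYSE70 and 70721, 68299 and 68496 in NRF2null-KYSE70 (log2 fold change of 0.55 ± 0.05 (SE), adjusted p = 1.41e-06). MT-ATP8 gave 7909, 7437 and 7717 in KYSE70 and 11802, 10136 and 9911 in NRF2null-KYSE70 (log2 fold change of 0.46 ± 0.06 (SE), adjusted p = 4.2e-05). The groups were separate for both genes, and the rise of each was close to that of the other. MT-ND4L gave 11769, 10753 and 11127 against 16471, 15879.8 and 14644 (log2 fold change of 0.48 ± 0.05 (SE), adjusted p = 7.89e-06). MT-ND4, which shares its mRNA, gave 84056, 74461 and 79993 against 108396, 113012 and 108312 (log2 fold change of 0.47 ± 0.05 (SE), adjusted p = 9.9e-06). How reads that touch the shared bases were assigned was not stated.

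The other heavy-strand mRNAs that rose were MT-CO2 (0.46 ± 0.06, adjusted p = 3.72e-05), MT-ND2 (0.35 ± 0.05, adjusted p = 5.03e-05), MT-ND5 (0.33 ± 0.05, adjusted p = 0.000131), MT-ND3 (0.30 ± 0.05, adjusted p = 0.00024) and MT-ND1 (0.15 ± 0.05, adjusted p = 0.0239). Among these MT-CO2, a catalytic subunit of complex IV that takes electrons from cytochrome c, went from 82378 ± 5964 to 113123 ± 5866 normalized counts (SD, n = 3). For MT-ND1, a membrane subunit of complex I, the 3 values were 47360.5, 42112 and 43008 in KYSE70 and 50000.3, 49472 and 47788 in NRF2null-KYSE70. The gap between its groups was small, and the call for MT-ND1 was lost when KYSE70 library 2 (adjusted p = 0.129), KYSE70 library 3 (0.099) or NRF2null-KYSE70 library 2 (0.0693) was left out, and under 4 of the other alternatives (adjusted p from 0.00697 to 0.212 over all alternatives).

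The 3 mitochondrial mRNAs that did not pass were those of MT-CO1, MT-CO3 and MT-CYB. MT-CO1, the haem and copper subunit of complex IV, gave 267753, 238189 and 247202 in KYSE70 and 243929, 244820 and 246130 in NRF2null-KYSE70 (log2 fold change of -0.03 ± 0.06, adjusted p = 0.645). MT-CO3 gave 159355, 148193 and 146899 against 145608, 139453 and 146864 (-0.07 ± 0.05, adjusted p = 0.266); its NRF2null-KYSE70 values all lay below those of KYSE70, though the nearest values almost touched, and it was called lower under total scaling (adjusted p = 0.0312, from there to 0.649 over all alternatives). MT-CYB, the cytochrome b of complex III, gave 49904, 45168 and 44913 against 45662, 47271 and 46356 (-0.01 ± 0.05, adjusted p = 0.935), and the groups overlapped. The mitochondrial subunits of complex IV thus did not move together, with MT-CO2 at 137%, MT-CO1 at 97.6% and MT-CO3 at 95.0% of the KYSE70 mean.

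MT-ND6 was the only mitochondrial mRNA called lower with the deposited scaling. It lies on the - strand of the mitochondrial genome from 14149 to 14673. Its normalized count was 1079.7, 1103 and 1017 in KYSE70 and 706, 649 and 747 in NRF2null-KYSE70, 65.7% of the KYSE70 mean (log2 fold change of -0.61 ± 0.08 (SE), adjusted p = 3.84e-05). The groups did not overlap, and the call was kept under every alternative run, though centring on neighbouring genes was not applied to mitochondrial genes. Whether counting used strand was not stated, and without strand the reads of MT-ND6 cannot be told apart from reads of the heavy-strand transcript that runs across the same bases.

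**Figure D2:**
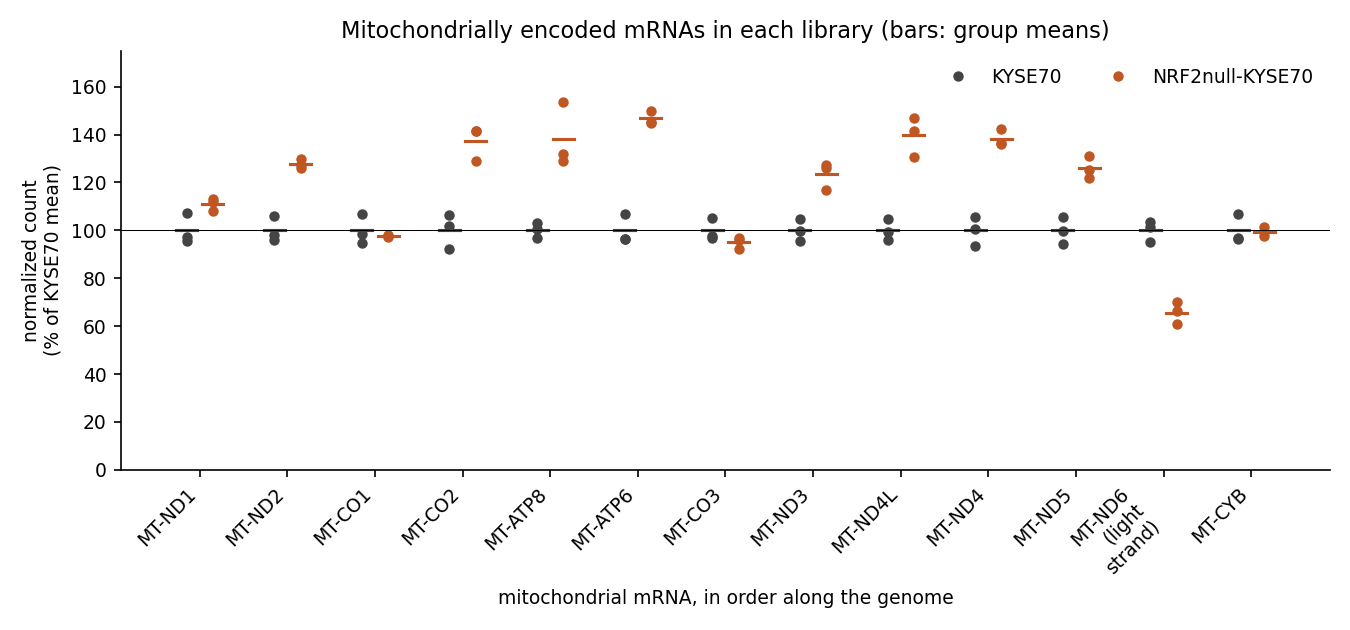
Normalized count of each mitochondrially encoded mRNA in each library as a percentage of the KYSE70 mean, in order along the mitochondrial genome; dots are libraries (3 a line) and bars are group means. NRF2null-KYSE70 lies above KYSE70 for 9 genes, at 147% for MT-ATP6, and below it for MT-ND6, at 65.7%. It also lies below for MT-CO3, at 95.0%, where the nearest values almost touch.

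Summed over the 13 genes, mitochondrial mRNA took between 1.37% and 1.51% of the reads in the KYSE70 libraries and between 1.51% and 1.54% in the NRF2null-KYSE70 libraries. As shares of reads the groups overlapped, with KYSE70 library 1 at 1.509% and NRF2null-KYSE70 library 1 at 1.507%. With the deposited scaling the summed count in NRF2null-KYSE70 was 112.9% ± 0.52 of the KYSE70 mean (SD, n = 3), and no NRF2null-KYSE70 library lay as low as the highest KYSE70 library, at 106.2%. The 2 ribosomal RNAs of the same genome, which are not members, also rose. MT-RNR1, the 12S rRNA, went from 35362 ± 2583 to 55702 ± 3072 normalized counts (log2 fold change of 0.66 ± 0.06 (SE), adjusted p = 1.26e-06), and MT-RNR2, the 16S rRNA, from 257833 ± 16099 to 396047 ± 2685 (log2 fold change of 0.62 ± 0.06 (SE), adjusted p = 2.05e-06). Together they took 0.48% to 0.54% of the reads in KYSE70 and 0.75% to 0.76% in NRF2null-KYSE70.

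Copies of mitochondrial genes also lie in the nuclear genome, and the table counts some of them as genes of their own. MTATP6P1, on chromosome 1 from 633696 to 634376 in hg38, was 98.5% identical to MT-ATP6 over 681 bases. It had a mean normalized count of 6924, 11.9% of that of MT-ATP6, and its log2 fold change of 0.61 (adjusted p = 0.000217) was close to that of MT-ATP6. MTCO1P12, 98.7% identical to MT-CO1, had a mean of 1014, or 0.41% of MT-CO1, and a log2 fold change of -0.12 (adjusted p = 0.222). The 5 other copies examined (of MT-ATP8, MT-CO2, MT-CO3, MT-ND2 and MT-ND4) had means from 7.86 to 69.6. Of all stretches of 150 bases, the read length, within a gene, 14.5% in MT-CO1 and 15.7% in MT-ND2 were also found in the copy. None were in the other genes compared. The treatment of reads with more than 1 alignment was not given, so the split between a mitochondrial gene and its copy is uncertain.

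Nuclear respiratory chain genes often carry promoter motifs of nuclear respiratory factor 1, encoded by NRF1, and of the ETS family protein GABP. GABP was once named nuclear respiratory factor 2, and neither factor is the NRF2 that NFE2L2 encodes. That NRF2 binds the antioxidant response element (ARE). Promoters from RefSeq (GRCh38.p14, 250 bases before to 50 bases after the start) were found for 68 of the 84 nuclear members and searched on both strands for GCGCATGCG (NRF1), CCGGAAG (ETS) and TGACNNNGC (the ARE core). The NRF1 letters were in 10 member promoters (14.7%) against 2.10% of all 27305 promoters, and 4 member promoters (5.88%) against 1.36% held them on both strands at the same place. The ETS letters were in 20 (29.4%) against 10.7%, and the ARE core in 10 (14.7%) against 13.6%. By call, the ARE core was in 2 of 30 promoters of lower members, 2 of 7 of higher members and 6 of 26 of members that did not pass. The ETS letters were in 10, 2 and 8 promoters of the same groups, and the NRF1 letters in 4, 2 and 4. The stretches below come from called members whose motif lies outside annotated exons, 3 lower and 2 higher, and show what these motifs look like in place. They are printed 5′ to 3′ on the strand of the gene, motif letters in capitals, and no base belongs to more than 1 kind of motif, while NDUFB4 holds the NRF1 letters on both strands. CTTCCGG is the ETS motif and GCAAAGTCA the ARE core read from the opposite strand. A match is a description of the letters and not of binding.
COX6B1, lower, ETS, chr19:35648203-35648322, + strand: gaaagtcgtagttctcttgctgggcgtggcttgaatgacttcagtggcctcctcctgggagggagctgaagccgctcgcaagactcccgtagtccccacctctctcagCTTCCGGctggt
COX8A, lower, ETS, chr11:63974500-63974619, + strand: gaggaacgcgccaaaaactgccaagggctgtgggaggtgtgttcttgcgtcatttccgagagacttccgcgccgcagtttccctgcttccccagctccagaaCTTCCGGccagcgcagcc
NDUFB7, lower, ETS, chr19:14572067-14572186, - strand: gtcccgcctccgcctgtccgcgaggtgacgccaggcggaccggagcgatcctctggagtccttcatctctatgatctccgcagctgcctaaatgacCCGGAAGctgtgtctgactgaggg
NDUFB4, higher, NRF1, chr3:120596136-120596255, + strand: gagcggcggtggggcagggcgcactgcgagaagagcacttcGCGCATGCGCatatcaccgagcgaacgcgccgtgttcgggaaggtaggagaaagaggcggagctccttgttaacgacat
NDUFA3, higher, ARE core, chr19:54102605-54102645, + strand: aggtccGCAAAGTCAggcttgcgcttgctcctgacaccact

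Complex I takes electrons from NADH through a flavin and a chain of iron-sulfur clusters. Of its 36 tested nuclear genes by symbol, NRF2null-KYSE70 had 17 lower and 4 higher, and 15 did not pass. Over all tested genes 28.3% were lower and 29.3% higher, and the counts of each complex stand beside these shares. The lower genes include NDUFA4 (-0.32 ± 0.10, adjusted p = 0.0132), which despite its symbol is now placed in complex IV. The nuclear core genes of complex I encode the parts shared with bacteria that carry the flavin and the clusters, and accessory subunits surround this core. Among the core genes NDUFV1, which binds the flavin, went from 9885 ± 409 to 7742 ± 330 normalized counts (-0.35 ± 0.05, adjusted p = 6.33e-05). NDUFS3 (-0.43 ± 0.07, adjusted p = 0.000224) and NDUFS1 (-0.17 ± 0.05, adjusted p = 0.00872) were also lower. The core genes NDUFS7 and NDUFS8 did not pass, at -0.07 ± 0.07, adjusted p = 0.408 and -0.14 ± 0.06, adjusted p = 0.0679.

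The largest called falls of complex I were in 3 accessory subunits. NDUFB10, a subunit of the membrane arm (ENSG00000140990, chromosome 16 from 1959538 to 1961975, GENCODE v44 on hg38), gave 5814, 6178 and 6747 in KYSE70 and 3357, 3669 and 3723 in NRF2null-KYSE70, 57.4% of the KYSE70 mean (log2 fold change of -0.80 ± 0.06 (SE), adjusted p = 2.97e-07). NDUFA12, of the peripheral arm (chromosome 12 from 94895297 to 95003748), gave 3749, 3832 and 4039.8 against 2239.5, 2427 and 2262 (log2 fold change of -0.75 ± 0.06 (SE), adjusted p = 2.02e-07). NDUFC2, of the membrane arm (chromosome 11 from 78068297 to 78079862), gave 925, 883 and 874 against 549.7, 631 and 553 (log2 fold change of -0.63 ± 0.09 (SE), adjusted p = 4.54e-05). For all 3 the groups were far apart, with the lowest KYSE70 library well above the highest NRF2null-KYSE70 library. NDUFC2 shares 428 bases of its exons with the readthrough gene NDUFC2-KCTD14, which had no read. Next in size were NDUFA8 (-0.59 ± 0.06, adjusted p = 3.49e-06) and NDUFA6 (-0.57 ± 0.06, adjusted p = 5.87e-06).

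The largest called rises of complex I were smaller than its falls. NDUFV3, a small accessory subunit beside the flavin site, gave 437, 489.8 and 472 in KYSE70 and 583, 638 and 603 in NRF2null-KYSE70 (log2 fold change of 0.38 ± 0.09 (SE), adjusted p = 0.0039). NDUFS4, needed for late assembly of the peripheral arm, gave 1939, 1902 and 2019 against 2057, 2567 and 2512 (log2 fold change of 0.28 ± 0.08 (SE), adjusted p = 0.0101). NDUFB4, whose NRF1 motif is printed above, gave 6482, 6343 and 6886 against 7191, 8132 and 8313 (log2 fold change of 0.26 ± 0.06 (SE), adjusted p = 0.00248). The groups were separate for each, but in NDUFS4 the lowest NRF2null-KYSE70 value lay close to the highest KYSE70 value, and its call was lost without NRF2null-KYSE70 library 2 (adjusted p = 0.0527, and from 1.98e-05 to 0.363 over all alternatives). NDUFA3 also rose (0.25 ± 0.07, adjusted p = 0.0122), a call lost without KYSE70 library 1 (adjusted p = 0.0613, and from 0.0049 to 0.064 over all alternatives). NDUFA3 shares 150 exonic bases with TFPT, a gene on the opposite strand, so part of its reads cannot be told apart from those of TFPT without strand. Summed over its nuclear genes by symbol, with NDUFA4 included, complex I stood at 91.0% ± 7.2 of the KYSE70 mean (SD, n = 3), and the groups overlapped. NRF2null-KYSE70 libraries 2 and 3 were at 95.8% and 94.5%, and without library 1 complex I had 17 lower and 5 higher genes. Without KYSE70 library 3 it had 13 lower and 4 higher genes.

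Complex II, which is also an enzyme of the citric acid cycle, had 1 lower and 2 higher genes of 4. SDHB, its iron-sulfur subunit, gave 6940.4, 6887 and 6761 in KYSE70 and 7273, 8382 and 8539 in NRF2null-KYSE70 (log2 fold change of 0.23 ± 0.06 (SE), adjusted p = 0.00555). SDHD, a membrane anchor, gave 10522, 11047 and 11198 against 11419.8, 13327 and 13051 (log2 fold change of 0.20 ± 0.06 (SE), adjusted p = 0.0106). Both were higher with no overlap between groups. The call for SDHB was lost under quantile normalization, limma without trend and neighbour centring (adjusted p from 6.13e-06 to 0.0757 over all alternatives), and the call for SDHD was lost without NRF2null-KYSE70 library 2 (adjusted p = 0.0561) and under 5 of the other alternatives (adjusted p from 1.78e-05 to 0.358 over all). SDHC, the partner anchor of SDHD, was lower at 9023, 9562 and 9644 against 8021, 8836 and 8649 (log2 fold change of -0.15 ± 0.05 (SE), adjusted p = 0.0268). Its call was lost without KYSE70 library 2 (adjusted p = 0.0985), KYSE70 library 3 (0.0998) or NRF2null-KYSE70 library 1 (0.0506), with adjusted p from 0.00238 to 0.187 over all alternatives. SDHA, the flavoprotein, did not pass (-0.12 ± 0.09, adjusted p = 0.296). The complex as a whole stood at 106.9% ± 7.5 of the KYSE70 mean, with overlap between groups. NRF2null-KYSE70 library 1 was at 98.3% and the other libraries of that line at 111.6% and 110.8%, and without library 1 complex II had no lower and 2 higher genes. Leaving out KYSE70 library 3 gave the same counts.

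Complex III had 4 lower genes and none higher among its 8 nuclear members, and all 8 had a negative log2 fold change. UQCRC1, the larger core protein (ENSG00000010256, chromosome 3 from 48599002 to 48610976), gave 20767, 20944 and 22578 in KYSE70 and 11839.8, 13356 and 13521 in NRF2null-KYSE70, 60.2% of the KYSE70 mean (log2 fold change of -0.73 ± 0.06 (SE), adjusted p = 2.88e-07). UQCRC2, the other core protein (chromosome 16 from 21953288 to 21983660), gave 21966, 22957 and 22714 against 14626, 16605 and 16136 (log2 fold change of -0.52 ± 0.05 (SE), adjusted p = 3.1e-06). UQCRQ, a small subunit that binds near cytochrome b, gave 5339.6, 5476 and 5993 against 3847, 4513 and 4819.8 (log2 fold change of -0.36 ± 0.08 (SE), adjusted p = 0.00153). In each the groups were apart, and NRF2null-KYSE70 library 1 was the lowest library. The calls of UQCRC1 and UQCRC2 were lost when the median of their neighbouring genes was subtracted, as described below for all members. UQCR10 was also lower (-0.30 ± 0.08, adjusted p = 0.00437). The Rieske iron-sulfur protein UQCRFS1 (-0.12 ± 0.06, adjusted p = 0.131), UQCRH (-0.02 ± 0.06, adjusted p = 0.81), UQCRB (-0.09 ± 0.06, adjusted p = 0.218) and UQCR11 (-0.13 ± 0.09, adjusted p = 0.262) did not pass. The summed nuclear level of complex III was 77.8% ± 5.9 of the KYSE70 mean, with its 3 NRF2null-KYSE70 libraries between 71.0% and 81.5% and the KYSE70 libraries between 96.3% and 104.1%. Genes with high counts weigh most in such a sum. UQCRC1 and UQCRC2, whose calls were lost with neighbours subtracted, had the highest counts of complex III. Without NRF2null-KYSE70 library 1 the counts of complex III were again 4 lower and none higher. Leaving out KYSE70 library 3 gave the same counts.

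Complex IV reduces oxygen to water. Of its 10 tested nuclear genes by symbol, without NDUFA4, 3 were lower (30%) and 2 higher (20%). Over all tested genes the shares were 28.3% and 29.3%, so the share of lower genes was near that of all genes. COX7B, a small X-linked subunit, gave 7228, 7770 and 8194 in KYSE70 and 4912, 6515 and 6118 in NRF2null-KYSE70 (log2 fold change of -0.41 ± 0.09 (SE), adjusted p = 0.00143). COX6B1, which faces the intermembrane space where cytochrome c docks, gave 5148, 4837 and 5442 against 3796, 4632 and 4485 (log2 fold change of -0.26 ± 0.07 (SE), adjusted p = 0.00882), and COX8A 2954, 2936 and 3016 against 2374, 2611 and 2611 (log2 fold change of -0.23 ± 0.06 (SE), adjusted p = 0.00394). The groups were separate for all 3, with NRF2null-KYSE70 library 1 the lowest, and the call of COX8A was lost with neighbours subtracted (-0.10, adjusted p = 0.134). COX5A, which faces the matrix, rose from 14296, 14922 and 14785 to 16945, 19179.5 and 19251 (log2 fold change of 0.33 ± 0.05 (SE), adjusted p = 0.000201), and COX6C from 3323, 3421 and 3636 to 3896, 4681 and 4338 (log2 fold change of 0.31 ± 0.07 (SE), adjusted p = 0.0016). COX6C and COX5A were thus above KYSE70 in all 3 libraries while COX7B was below in all 3. The summed nuclear level was 98.3% ± 9.5 of the KYSE70 mean, and the groups overlapped. NRF2null-KYSE70 library 1 was at 87.3%, whereas libraries 2 and 3 were at 104.2% and 103.5%. Without library 1 the counts of complex IV were again 3 lower and 2 higher. Leaving out KYSE70 library 3 gave the same counts.

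Complex V had 11 lower genes and none higher among 18 tested, a share of 61.1% lower, against 28.3% of all tested genes. The ring of subunit c, which turns as protons pass, is encoded by 3 nuclear genes that give the same mature protein with different import signals, and all 3 were lower. ATP5MC2 (ENSG00000135390, chromosome 12 from 53632726 to 53677408) gave 6714, 7143 and 7476 in KYSE70 and 3365, 4003 and 3979.6 in NRF2null-KYSE70 (log2 fold change of -0.91 ± 0.07 (SE), adjusted p = 2.04e-07). ATP5MC3, the highest of the 3 in normalized counts, gave 12745, 13526 and 13656 against 8472, 10014 and 10139.6 (log2 fold change of -0.48 ± 0.07 (SE), adjusted p = 3.73e-05), and ATP5MC1 5897, 6461 and 6849 against 4167, 4792 and 4958 (log2 fold change of -0.47 ± 0.07 (SE), adjusted p = 0.000113). Per kb of canonical transcript ATP5MC3 was the lowest of the 3, at 4416.5 beside 8619 for ATP5MC2 and 8546 for ATP5MC1. This order rests on canonical lengths of 2587 bases for ATP5MC3, 632 for ATP5MC2 and 646 for ATP5MC1. Which transcript forms these cells use was not examined. No library of NRF2null-KYSE70 reached the lowest KYSE70 library for any of the 3 genes.

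The catalytic head of ATP synthase is built from alpha and beta subunits in equal number. ATP5F1B, the beta subunit, gave 75341, 77194 and 79492 in KYSE70 and 54024, 58652 and 57519 in NRF2null-KYSE70 (log2 fold change of -0.45 ± 0.05 (SE), adjusted p = 6.31e-06). ATP5F1A, the alpha subunit, gave 36519, 37985 and 38431 against 33431, 37487 and 37811 (-0.06 ± 0.05, adjusted p = 0.396) and did not pass. ATP5F1B was thus well below KYSE70 in every library, whereas ATP5F1A overlapped between the groups. ATP5PF, a subunit of the stalk, was lower (-0.42 ± 0.07, adjusted p = 0.000128), and its 5′ end overlaps that of GABPA, on the opposite strand, by 52 exonic bases; GABPA was higher (0.13 ± 0.05, adjusted p = 0.0473). ATP5IF1, the inhibitor of the enzyme, did not pass (-0.08 ± 0.06, adjusted p = 0.32). The calls for ATP5PB and ATP5PD were each lost without KYSE70 library 2 (adjusted p = 0.125 and 0.0819), KYSE70 library 3 (0.188 and 0.181) or NRF2null-KYSE70 library 1 (0.11 and 0.116), and over all alternatives adjusted p ran from 0.00459 to 0.188 for ATP5PB and from 0.00823 to 0.181 for ATP5PD. The summed nuclear level of complex V was 81.6% ± 6.0 of the KYSE70 mean, and its NRF2null-KYSE70 libraries, at 74.8% to 85.3%, lay below all KYSE70 libraries, at 96.1% to 103.9%. ATP5F1B, with the highest count of the complex, weighs most in this sum, and its direction turned with neighbours subtracted, as described below. Without NRF2null-KYSE70 library 1, complex V had 9 lower genes and 1 higher. Without KYSE70 library 3 it had 8 lower genes and none higher.

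**Figure D3:**
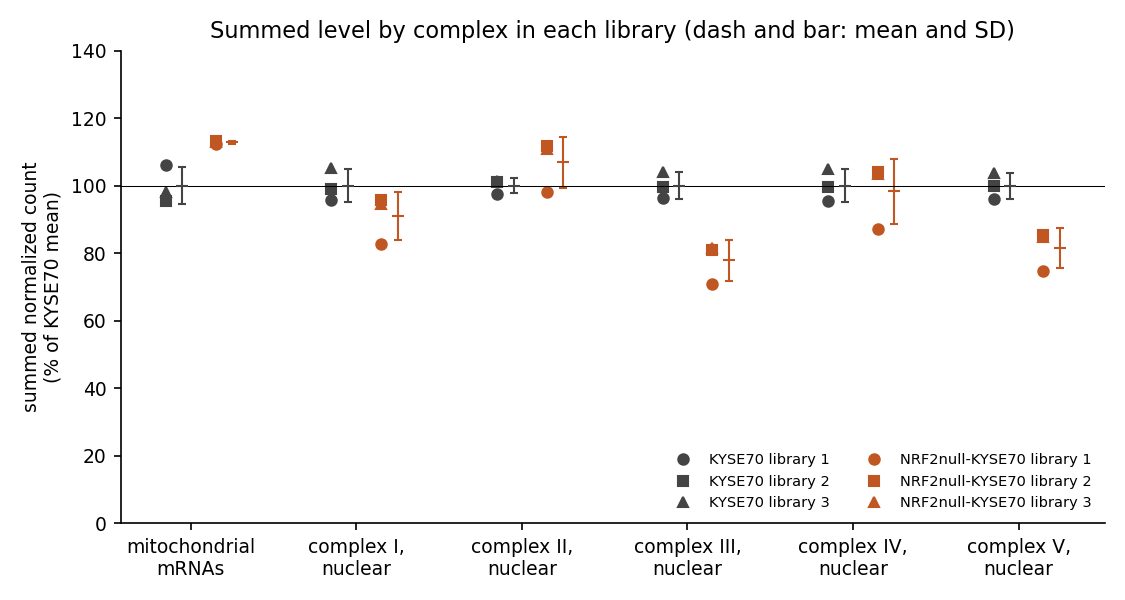
Summed normalized count of the mitochondrial mRNAs and of the nuclear genes of each complex, as a percentage of the KYSE70 mean; symbols are libraries, and the dash and bar beside them are the mean and SD of 3. NRF2null-KYSE70 library 1 (circle) is the lowest of its group for every nuclear complex, and complexes III and V are lower in all 3 NRF2null-KYSE70 libraries. Genes with high counts weigh most in each sum.

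Several nuclear subunits exist in a common form and in a form restricted to other tissues. COX4I1, the common form of subunit 4, gave 18018 ± 1342 and 16810.5 ± 1284 normalized counts in KYSE70 and NRF2null-KYSE70 (SD, n = 3), and COX4I2, the form of lung and hypoxic cells, had no read in any library. COX6A1 gave 1362 ± 76.1 and 1187 ± 136, and the heart and muscle form COX6A2 had no read. COX7A2 gave 4240.1 ± 361 and 3957 ± 649, and the muscle form COX7A1 had no read. Neither COX4I1, COX6A1 nor COX7A2 passed the test. The testis forms COX6B2, COX7B2 and COX8C had 25, 0 and 0 reads over the KYSE70 libraries and 25, 4 and 4 over the NRF2null-KYSE70 libraries. At this depth, with 3 reads in a library taken as the floor, the restricted forms COX4I2, COX6A2 and COX7A1 were not detected in either line. The other members under the filter were NDUFA7, with 33 and 25 reads, and ATP5MGL, with 5 and 0.

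Levels between genes were compared per kilobase of the canonical transcript. On this scale the mitochondrial mRNAs had a median of 45255 normalized counts per kb over both lines, against 4852 for the nuclear members. MT-CO3, MT-CO1 and MT-CO2, the catalytic core of complex IV, were the most abundant at 188429, 160832 and 142910 per kb, and MT-ND6 the least at 1683. In the nucleus ATP5F1B led with 38111 per kb, followed by UQCRH (30997) and NDUFS5 (29489.6). SDHA stood at 239.9 per kb beside 6847 to 8783 for the other 3 subunits of complex II, and NDUFV2 at 20.5 beside 5649.8 for its partner NDUFV1, but both share most of their exons with another gene.

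Some of the lowest genes share most of their exons with another annotated gene on the same strand. For 7 members (ATP5PO, NDUFA11, SDHA, NDUFB8, NDUFA7, NDUFA13 and NDUFV2) over 60% of the canonical transcript was covered in this way, from 63.8% in ATP5PO to 89.97% in NDUFV2. Their median level was 239.9 per kb, against 5763 for the 70 tested nuclear members with less sharing. Some members with little or no sharing were also low, such as NDUFA9 at 69.9 per kb with 11.7% shared and NDUFV3 at 93.8 with 0% shared. Their canonical transcripts were long, at 8356 and 5725 bases. How reads that fall on exons of more than 1 gene were counted was not stated. Its part in the levels of the 7 members was not tested. The shares come from GENCODE v44, whereas the study's methods name a RefSeq annotation and the table lists Ensembl identifiers, so the gene models behind the counts may differ from those used for the shares. NDUFV2, which had the lowest log2 fold change of all members, rested on few reads. Its normalized counts were 20.5, 22.7 and 29.5 in KYSE70 and 7.10, 16.7 and 9.13 in NRF2null-KYSE70 (log2 fold change of -1.14 ± 0.46 (SE), adjusted p = 0.0519), from 76 and 32 reads in all, so the groups did not overlap but the spread was wide. These values cannot be read as the level of the whole NDUFV2 transcript.

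**Figure D4:**
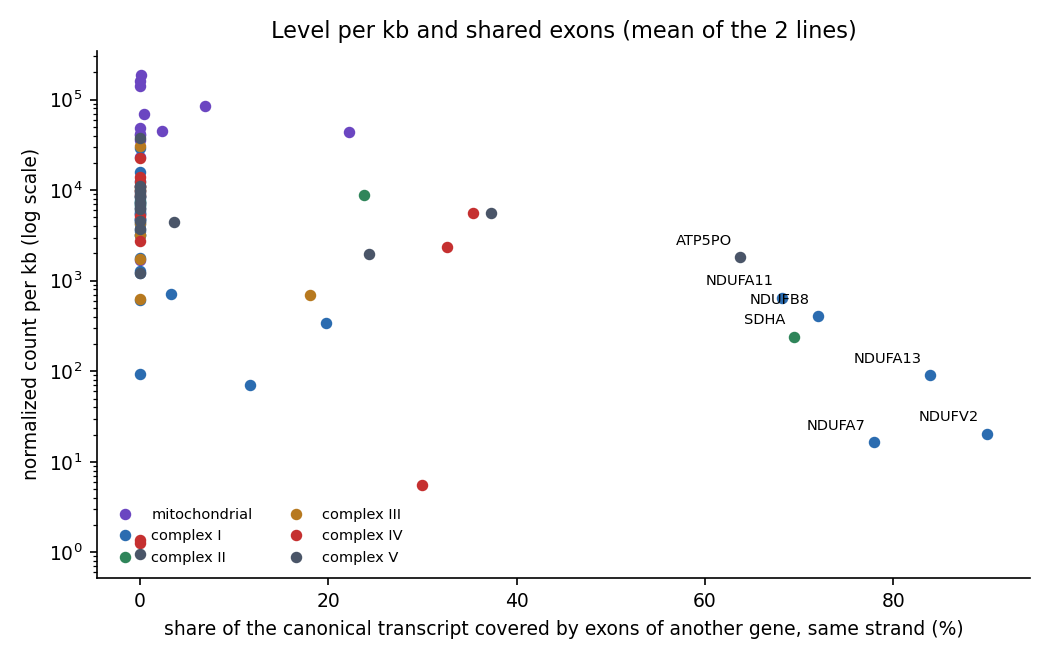
Level of each member in normalized counts per kb (mean of both lines, log scale) against the share of its canonical transcript covered by exons of another gene on the same strand, in percent; points are genes with a level above 0, coloured by complex. The 7 members with more than 60% shared lie at or below 1812 per kb, as do some members with less sharing.

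Several of the large falls lay among neighbouring genes that were also lower. For each nuclear member the median log2 fold change of up to 20 tested protein-coding genes on either side was taken. Over the 76 tested nuclear members the Pearson correlation between a member and its neighbours was 0.60 and the Spearman correlation 0.50, a description over genes that share libraries and, in some cases, neighbours. All 7 members whose neighbours had a median under -0.3 (a limit chosen after the values were seen) were lower: ATP5MC2, NDUFB10, NDUFA12, UQCRC1, NDUFA8, UQCRC2 and ATP5F1B. These include the largest called falls of complexes I, III and V. Of the 6 members with neighbours over 0.3, 2 were lower and 3 higher. Of the 63 between, 27 were lower and 5 higher.

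Of these 7 members, UQCRC1, UQCRC2 and ATP5F1B were no longer called lower once their neighbours were taken into account. The neighbours of UQCRC1 had a median of -0.65, and after this was subtracted in each library UQCRC1 was at -0.083 (adjusted p = 0.329). UQCRC2, with neighbours at -0.38, was at -0.13 (adjusted p = 0.0825). ATP5F1B, with neighbours at -0.63, turned to 0.18 (adjusted p = 0.0211). The rises of NDUFV3 and COX5A were lost as well, with neighbours at 0.43 and 0.36 and centred values of -0.051 (adjusted p = 0.719) and -0.026 (adjusted p = 0.727). ATP5MC2 and NDUFB10 kept their calls at a smaller size, ATP5MC2 going from -0.91 to -0.31 (adjusted p = 0.00275) and NDUFB10 from -0.80 to -0.27 (adjusted p = 0.00219). The other genes of the subunit c ring were at -0.52 for ATP5MC1 (adjusted p = 0.000145) and -0.47 for ATP5MC3 (adjusted p = 7.96e-05), close to their values without centring. Centred in this way, 38 nuclear members were lower, against 27% of all tested genes, and 3 higher, against 26.2%, so the split of the called nuclear members moved from 81.8% to 92.7% lower.

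**Figure D5:**
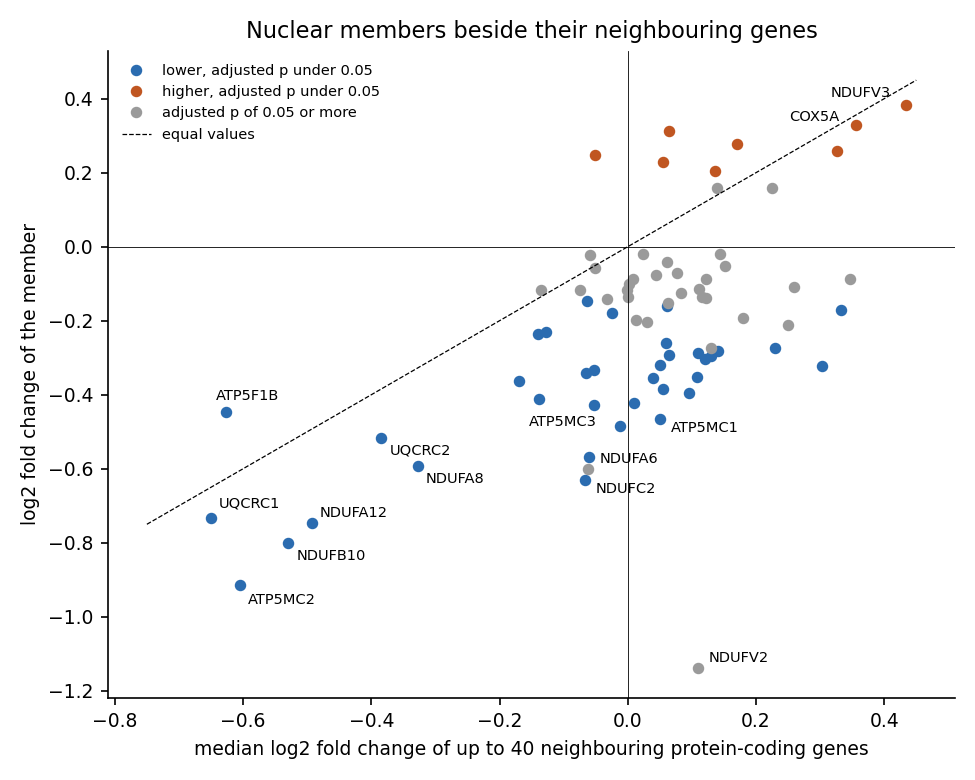
Log2 fold change of each tested nuclear member against the median log2 fold change of up to 20 tested protein-coding genes on either side; the dashed line marks equal values, and colours give the call at an adjusted p under 0.05. The 7 members with neighbours under -0.3 are all lower, while ATP5MC1, ATP5MC3, NDUFA6 and NDUFC2 lie far below the line with neighbours near 0.

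The respiratory complexes are put together with the help of assembly factors. The counts of lower and higher genes in these and the next lists stand beside 28.3% lower and 29.3% higher over all tested genes. Complex I assembly factors were lower for 7 and higher for 2 of 17 tested, with DMAC1, of the membrane arm, at -0.63 ± 0.07, adjusted p = 6.45e-06 and NDUFAF1 at 0.25 ± 0.08, adjusted p = 0.0121. Complex IV assembly factors were lower for 11 and higher for 3 of 22, with a median log2 fold change of -0.19. COX20, which chaperones newly made MT-CO2, fell from 3275 ± 204 to 1419 ± 60.6 normalized counts (log2 fold change of -1.21 ± 0.06 (SE), adjusted p = 7.93e-09), and its neighbours had a median of 0.16. COX17, which carries copper to the enzyme, rose (0.40 ± 0.07, adjusted p = 0.000296). Among complex III factors 3 of 6 were lower and 1 higher (UQCC1 at -0.66 ± 0.06, adjusted p = 5.79e-07, TTC19 at 0.17 ± 0.05, adjusted p = 0.0088). Complex II factors held 1 rise of 4 (SDHAF4, 0.33 ± 0.08, adjusted p = 0.00333) and complex V factors 1 fall of 4 (ATPAF1, -0.19 ± 0.05, adjusted p = 0.00376). With neighbours subtracted the rises of NDUFAF1 (-0.12, adjusted p = 0.301), COX17 (0.12, 0.198), TTC19 (0.12, 0.0781) and SDHAF4 (0.17, 0.0983) were lost, that of NDUFAF1 with its direction.

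The list of mobile carriers and subunits outside the symbol rule moved in both directions, 4 lower and 4 higher of 9. It also held the ribosomal RNAs MT-RNR1 and MT-RNR2, which are neither and make up 2 of the 4 that were higher. CYCS, cytochrome c itself, was slightly lower (-0.14 ± 0.05, adjusted p = 0.0244), whereas CYC1, the cytochrome c1 of complex III, rose from 8086 ± 914 to 12382 ± 1579.9 normalized counts (0.61 ± 0.09, adjusted p = 0.000103) while no UQCR gene did. The neighbours of CYC1 had a median of 0.38, and with this subtracted its call was lost (0.24, adjusted p = 0.0506). NDUFAB1, the acyl carrier protein held by complex I, fell (-0.82 ± 0.09, adjusted p = 4.55e-06). Of the enzymes that make ubiquinone, 6 of 11 were lower and 2 higher, from COQ7 at -0.67 ± 0.08, adjusted p = 1.2e-05 to COQ2 at 0.61 ± 0.06, adjusted p = 1.54e-06.

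Mitochondrial gene expression depends on nuclear genes as well. Of 32 tested genes for transcription, replication and RNA handling of mitochondrial DNA, 9 were lower and 12 higher, with a median log2 fold change of 0.06. With neighbours subtracted, 10 were lower and 8 higher, beside 27% and 26.2% of all tested genes. TFB1M, which methylates the 12S rRNA, rose from 1021 ± 74.7 to 2451 ± 253 normalized counts (log2 fold change of 1.26 ± 0.08 (SE), adjusted p = 6.59e-08), and MTERF2 fell (-0.98 ± 0.10, adjusted p = 2.82e-06). Proteins of the large mitochondrial ribosomal subunit were lower for 28 and higher for 4 of 48 (median -0.25, from MRPL32 at -0.86 ± 0.06, adjusted p = 8.6e-08 to MRPL1 at 0.30 ± 0.06, adjusted p = 0.0005). For the small subunit 10 of 29 were lower and 6 higher (median -0.02, from MRPS26 at -1.13 ± 0.07, adjusted p = 1.8e-08 to MRPS10 at 0.53 ± 0.05, adjusted p = 2.31e-06). The neighbours of MRPS26 had a median of -0.92, and it was at -0.21 with this subtracted (adjusted p = 0.0371). MRPL1 lost its call in the same way (-0.065, adjusted p = 0.375).

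Among 10 tested transcription factors and coactivators of respiratory genes, 1 was lower and 5 higher. PPARGC1B, a coactivator of mitochondrial biogenesis, was lower (-0.68 ± 0.09, adjusted p = 3.72e-05), and its relatives PPARGC1A (0.36 ± 0.07, adjusted p = 0.000996) and PPRC1 (0.19 ± 0.06, adjusted p = 0.0185) were higher. ESRRA, a nuclear receptor that works with them, rose (0.28 ± 0.05, adjusted p = 0.000167), as did YY1 (0.14 ± 0.05, adjusted p = 0.0254) and GABPA (0.13 ± 0.05, adjusted p = 0.0473), the DNA-binding subunit of GABP. With neighbours subtracted 5 of the 10 were lower and 4 higher (median -0.12), and YY1 lost its call (-0.067, adjusted p = 0.25). Over all tested genes, centred in this way, 27% were lower and 26.2% higher. NRF1 did not pass (-0.18 ± 0.08, adjusted p = 0.0518), nor did GABPB1 (0.02 ± 0.06, adjusted p = 0.783), CREB1 (0.01 ± 0.06, adjusted p = 0.91) or MYC (0.03 ± 0.04, adjusted p = 0.631), and PERM1 was below the filter. Enzymes of the citric acid cycle, which feeds the chain, were lower for 5 and higher for 8 of 17 (median 0.05), from IDH3B at -0.82 ± 0.05, adjusted p = 3.55e-08 to FH at 0.45 ± 0.04, adjusted p = 2.01e-06. The neighbours of IDH3B had a median of -0.99, and with this subtracted its direction turned (0.17, adjusted p = 0.0137).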

How the data were processed

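Per the study's methods and the labels, untreated KYSE70 and NRF2null-KYSE70 cells gave total RNA (3 libraries each), sequenced with 150 base reads, aligned with STAR 2.6.90c to hg38 and counted with featureCounts 1.5.1. The authors then normalized the counts with DESeq2. The deposited signal is a normalized count per gene, a read count divided by 1 size factor per library. Whole reads were recovered: 100% of values were multiples, within 0.01, of the value of 1 read. Strand and multiple-alignment settings were not given in the sources used here. The column headers give only the line, and libraries are therefore numbered by their order in the table. No pair of same-line libraries was a repeat of another (chi-square per degree of freedom from 4.59 to 23.4).

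Tests used limma 3.58.1 (lmFit, eBayes with trend, R 4.3.3) on log2(normalized count + 1) for the 15994 genes with a mean of at least 10, with the line as only term, two-sided, with Benjamini-Hochberg adjustment over all of them. Fold changes on this scale understate those of genes with few reads. edgeR 4.0.16 and DESeq2 1.42.0 were run on the recovered reads as alternatives, with other pseudocounts, filters and scalings, limma without trend and with robust eBayes, centring on neighbouring genes, and each library left out. Scripts were tested on simulated data. Positions and canonical transcripts came from GENCODE v44, which held 58472 of the 58884 gene identifiers and all 97 members; promoters came from RefSeq.

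The members and gene lists were chosen with earlier results of these data known. Named in full were all mitochondrial members and, per complex, up to 3 called rises and 3 called falls of a mean of at least 100 without overlap between groups, with isoform pairs and members under the filter. For other lists the largest called rise and fall are named, and all transcription factors. Other genes (such as ATP5F1A, ATP5F1B, SDHA, NDUFV2, core subunits, CYCS, CYC1 and NDUFAB1) were chosen after their values were seen. One member is counted but not reported by name here.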

Additional observations from a re-analysis of the deposited data

How the results depend on the processing

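Of the 54 called respiratory chain genes, 31 kept their call under all 19 alternatives, 22 of them lower and 9 higher, and 9 of the 31 were mitochondrial. Among the 9 stable rises COX6C was the only nuclear gene. Mitochondrial genes were not centred on neighbours, so that alternative left their fold changes as they were and could not test them. Subtracting the median of neighbouring genes turned the direction of 4: ATP5F1B (0.18, adjusted p = 0.0211), COX5A (-0.026), NDUFB4 (-0.067) and NDUFV3 (-0.051). The count of lower members was 37, from 29 to 44 with a library left out, and that of higher members was 17, from 14 to 19. Without KYSE70 library 3 the calls of ATP5PO (adjusted p = 0.0668), NDUFA4 (0.0709), NDUFB3 (0.05), NDUFB2 (0.0986) and NDUFB7 (0.0912) were lost, and those of NDUFB2 (0.0638) and NDUFB7 (0.0579) also without KYSE70 library 2; over all alternatives the adjusted p of these 5 ran from 0.000262 to 0.313. Without NRF2null-KYSE70 library 1, NDUFB5 (0.24, adjusted p = 0.000126) and ATP5F1D (0.25, adjusted p = 0.00132) passed. Total scaling gave 52 lower and 14 higher, total scaling of nuclear genes 51 and 14, quantile normalization 48 and 14, limma without trend 29 and 13, edgeR 36 and 17, and DESeq2 38 and 17. Mitochondrial genes were lower for 1, also with any library left out, and for 2 under total scaling and 2 under total scaling of nuclear genes; higher for 9, or 8 to 9 with a library left out. Genes past the adjusted p of 0.05 that changed at least 2-fold numbered 2344 (2228 to 2346 with a library left out) and 1511 with a minimum mean of 50, where 13004 genes were tested. Genes past the adjusted p alone numbered 9206 (8160 to 9339).

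No paired analysis was possible because replicate numbers are missing from the column names, which give the line alone. With 3 libraries a line from 1 clone, the spread between clones was not measured, and members with few reads or mostly shared exons are uncertain.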
